A study of Mus musculus with 6 samples.

Results

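The genes described here encode the machinery that docks, primes and fuses vesicles, above all the synaptic vesicle and its SNARE proteins. Members were taken by symbol from the platform's probe table, as every gene of the synaptotagmin (Syt), syntaxin (Stx), syntaxin-binding (Stxbp), VAMP, complexin (Cplx), synapsin (Syn), Sv2, Snap, Rab3, Unc13 and Rims families named by a single symbol. This gave 70 genes of the 18193 named on the array, read by 167 probe sets. Where a gene has several probe sets, the brightest on average over all 6 arrays stands for it, whatever the genotype. All values are log2 probe set intensities, and a level of 1 probe set cannot be set against that of another, since probes differ in how well they bind.

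The RNA came from mouse embryos at E10.5, from tauGFP-positive cells sorted out of hindbrains pooled over whole litters, a tissue that the labels call rhombomere 4. In the swap group (n = 3 arrays) the Hoxb1 locus made a paralogous Hox protein with IRES-tauGFP, and in the control group (n = 3 arrays) it made the normal Hox-B1 protein with IRES-tauGFP (Hoxb1-IRES-tauGFP). The reporter sits in the Hoxb1 locus in both groups, so the sort took cells with that locus active, of any type. The series design calls the arrays independent biological replicates, and the comparison sets cells with the replaced protein against cells with Hox-B1.

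Vesicle fusion is driven by SNARE proteins. VAMP on the vesicle zips together with syntaxin and SNAP-25 on the plasma membrane into a tight helical bundle that pulls the membranes together. Synaptotagmins sense calcium, complexins clamp and then assist the assembled SNAREs, Munc13 and RIM proteins prime docked vesicles at the active zone, and synapsins hold the reserve pool. Relatives of the same proteins serve membrane traffic in every cell, between the Golgi apparatus, endosomes, lysosomes and the surface. In the embryo many neuronal members are switched on as neurons leave the cell cycle, before synapses form, and serve axon growth and secretion.

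The promoter windows of 4 members are shown because they hold letters bound by regulators that bear on these cells. REST, a repressor of neuronal genes in cells that are not neurons, binds the bipartite RE1 element, and Hox proteins bind together with Pbx proteins at a bipartite site. The windows run from 250 bases before to 50 bases after a gene start in RefSeq (GRCm38.p6), and 55 of the 70 members had 71 such windows. Capitals mark the motif letters found on either strand. The Unc13a window is chr8:71671708-71672007 (minus strand), the Syn1 window chrX:20920869-20921168 (minus strand), the Syt2 window chr1:134646362-134646661 (plus strand) and the Stx3 window chr19:11819354-11819653 (minus strand). The Stx3 window lies inside the gene, which spans 11775118 to 11821569, and so belongs to an inner start and not the outermost one.
Unc13a: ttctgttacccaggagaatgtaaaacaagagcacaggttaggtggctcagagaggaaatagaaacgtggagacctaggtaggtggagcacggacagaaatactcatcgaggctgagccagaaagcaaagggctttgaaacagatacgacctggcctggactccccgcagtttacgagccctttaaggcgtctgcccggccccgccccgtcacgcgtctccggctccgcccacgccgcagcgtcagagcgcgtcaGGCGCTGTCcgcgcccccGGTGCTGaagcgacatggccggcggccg
Syn1: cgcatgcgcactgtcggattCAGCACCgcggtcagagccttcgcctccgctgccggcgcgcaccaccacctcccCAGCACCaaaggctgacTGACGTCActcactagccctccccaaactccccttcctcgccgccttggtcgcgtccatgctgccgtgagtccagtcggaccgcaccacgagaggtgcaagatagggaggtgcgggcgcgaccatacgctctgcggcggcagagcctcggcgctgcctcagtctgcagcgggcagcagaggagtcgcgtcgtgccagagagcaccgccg
Syt2: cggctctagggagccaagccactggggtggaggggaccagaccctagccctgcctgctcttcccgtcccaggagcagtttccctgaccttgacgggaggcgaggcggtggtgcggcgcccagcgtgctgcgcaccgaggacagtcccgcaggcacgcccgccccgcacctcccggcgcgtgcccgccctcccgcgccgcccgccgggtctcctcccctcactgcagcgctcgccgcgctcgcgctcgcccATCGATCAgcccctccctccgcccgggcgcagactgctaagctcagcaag
Stx3: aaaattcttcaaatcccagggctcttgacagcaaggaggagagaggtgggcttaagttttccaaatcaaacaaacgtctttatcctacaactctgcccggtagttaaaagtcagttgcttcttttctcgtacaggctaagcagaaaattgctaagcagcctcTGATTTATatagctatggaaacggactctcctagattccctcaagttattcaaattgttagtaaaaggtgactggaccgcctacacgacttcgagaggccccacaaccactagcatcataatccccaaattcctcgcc
In Unc13a the capitals are the right part of RE1, GACAGCGCC, at bases 255 to 263 of the window and the left part, CAGCACC, at bases 273 to 279, both on the opposite strand. The right part stood in 1 of the 71 member windows (1.41%) and in 0.326% of all 32851 windows. The left part stood in 7 member windows (9.86%) and in 7.14% of all windows, Syn1 among them at bases 21 to 27 and again at bases 75 to 81. Syn1 also held the cyclic AMP response element TGACGTCA at bases 92 to 99, found in 2 member windows (2.82%) and in 1.79% of all. In Syt2 and Stx3 the capitals are the Pbx-Hox letters TGATNNAT, at bases 251 to 258 on the opposite strand and at bases 163 to 170 on the same strand, and these were the 2 member windows with that motif (2.82%, against 8.85% of all windows). None of the 4 searched motifs overlap in these windows. The matches describe letters only, and the levels of these genes are given with their groups below.

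No member passed the test between the genotypes. limma called 0 of the 70 members at an adjusted p under 0.05, as it did over all 45037 probe sets (0.0%), and the adjusted p of every member rounded to 1.00. At an unadjusted p under 0.05 there were 2 members, Syt5 and Unc13d, both lower in the swap arrays, against 3.63% of all genes. All 3 swap arrays lay above all 3 control arrays in 2 members (Stx2 and Stx17), against 4.3% of all genes, and below them in 4 members (Syt5, Syn3, Snap29 and Unc13d), against 4.55% of all genes. Of the differences 30 were above 0 and 40 below 0, so that 42.9% of the members and 50.9% of all genes lay above 0, with a median of -0.06 over the members and 0.01 over all genes. The counts of members past the unadjusted threshold or without overlap lie near their background shares and are no result about the members as a set. Among the 22 members that the naming rule selects, leaving out 1 array moved the difference of 14 by over 1.5 times or turned its sign. It did neither for the other 8, which were Cplx3, Syt5, Syt7, Stx2, Unc13d, Snap29, Stx17 and Vamp5. This rule is relative to the difference. A difference near 0, such as 0.02 for Snap25, therefore counts as moved after a small shift, and a large difference seldom does. The naming rule also used these same arrays, so the split does not measure how reliable a difference is.

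The precision of the arrays limits what this shows. Of the 70 members 56 (80.0%) lay at or above the median level of all probe sets, a mean log2 intensity of 6.83, and the other 14 lay below it. Among all genes 61.4% reached that level. Intervals (95%) that stayed inside 2-fold either way were found in 27 of the 56 members at or above the median level (48.2%), against 68.1% of the genes at that level. None of the 14 members below it had such an interval (0 of 14). A fit of the brighter probe sets alone, from the median level up, gave such intervals in 40 of the 56 members. The share of all genes in that fit is not given. The median SE of a difference was 0.32 in members at or above the median level and 0.73 in members below it.

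**Figure D1:**
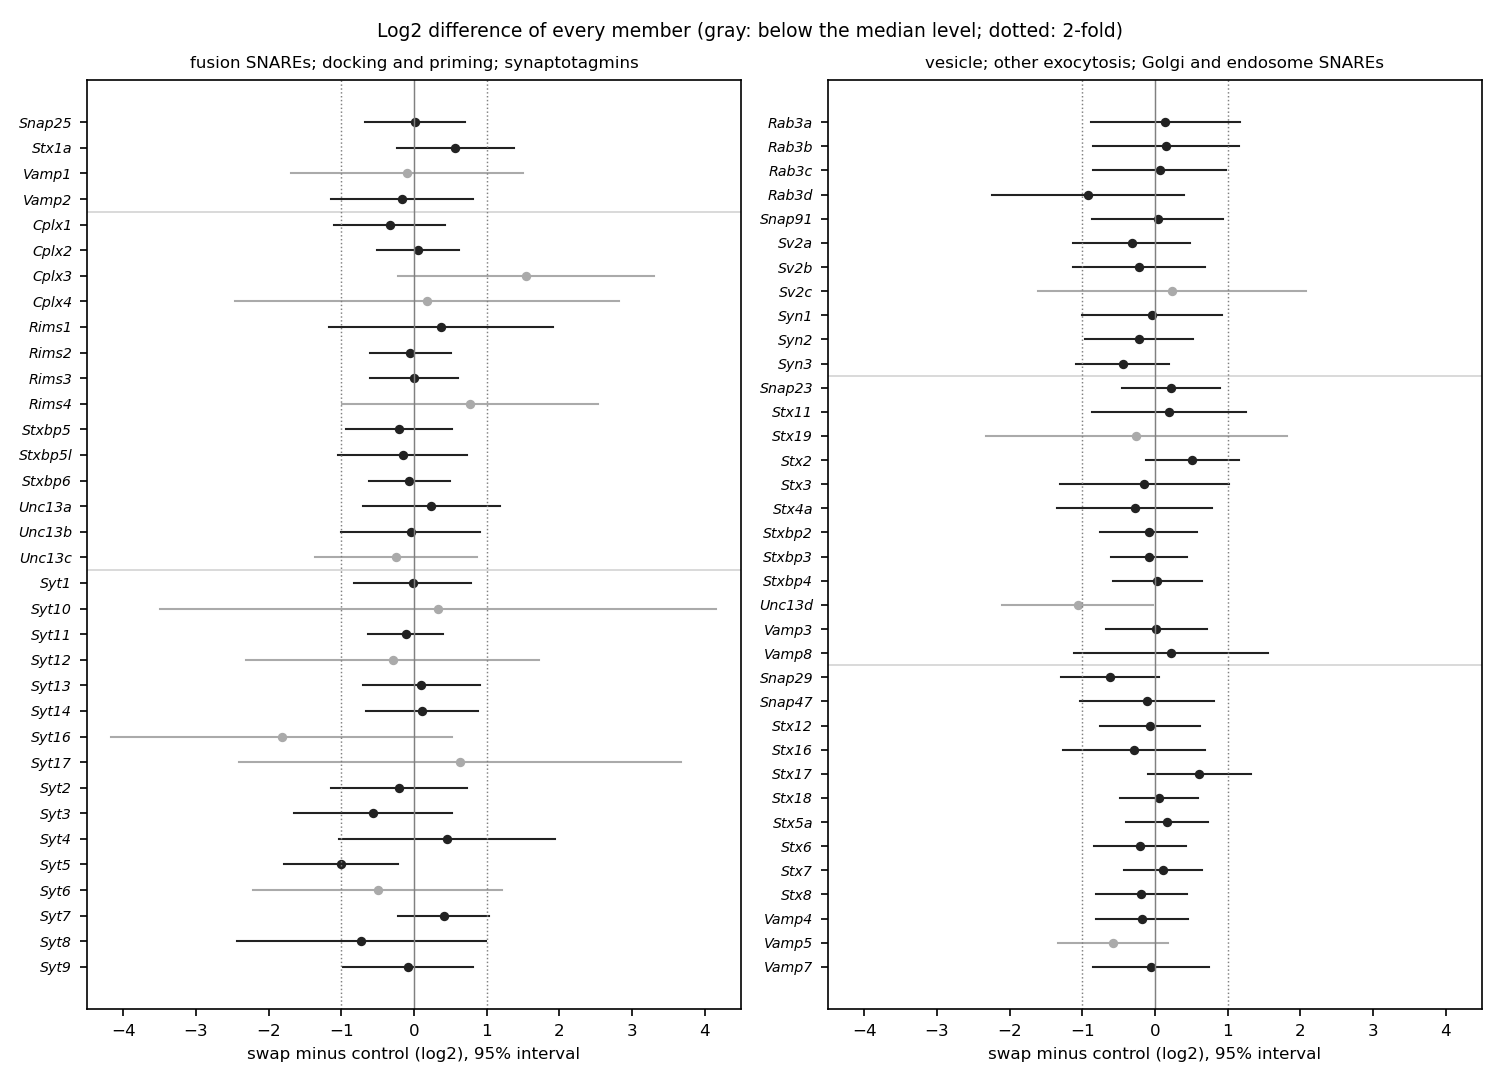
Log2 difference (x axis, swap minus control) of each of the 70 members (y axis, in 6 role groups), with its 95% interval from limma over 3 swap and 3 control arrays. Black points are members at or above the median level of all probe sets and gray points members below it, and 0 of the gray intervals lie within the dotted 2-fold lines.

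Of the SNAREs that fuse the synaptic vesicle, 3 of 4 stood well above the median level in both genotypes, and their differences had intervals that reach beyond 0 on both sides. Snap25, the plasma membrane SNARE cut by botulinum toxin A, stood at 10.98, 11.45 and 11.68 in the swap arrays and at 11.12, 11.44 and 11.49 in the control arrays. The groups overlap throughout, and the difference was 0.02 (SE 0.28, 95% interval -0.67 to 0.70). A further Snap25 probe set gave -0.04. The interval thus lies within 2-fold.

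Vamp2, the main vesicle SNARE of brain synapses, stood at 9.92, 10.51 and 10.94 in the swap arrays and at 10.05, 10.92 and 10.89 in the control arrays. Array 1 was the lowest of each genotype, and the difference was -0.16 (SE 0.39). With 1 array left out it lay between -0.45 (without control array 1) and 0.10 (without swap array 1). Its other probe set, at a lower level, gave -0.14. Stx1a, the syntaxin partner of both, stood at 9.69, 10.23 and 10.10 in the swap arrays and at 8.90, 9.70 and 9.71 in the control arrays. The swap arrays tended to the higher side with overlap at 9.69 to 9.71, and the difference was 0.57 (SE 0.32, 95% interval -0.23 to 1.37, two-sided exact permutation p = 0.3). Without control array 1 it was 0.30. Its probe set is of the kind that can also bind other transcripts, and the other Stx1a probe set, below the median level at 6.65, gave -0.67. Vamp1, the vesicle SNARE best known from motor synapses and spinal cord, lay below the median level. It stood at 5.08, 6.19 and 4.23 in the swap arrays and at 4.84, 6.21 and 4.74 in the control arrays.

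Of the 14 docking, priming and clamp genes 10 lay at or above the median level, and 7 differences were above 0 and 7 below, with a median of -0.02. RIM scaffolds tether vesicles near the calcium channels of the active zone, and Rims2 and Rims3 varied less between arrays than Rims1 and Rims4. Rims2 stood at 9.07, 8.91 and 9.28 in the swap arrays and at 9.22, 8.95 and 9.23 in the control arrays. Its difference was -0.05 (95% interval -0.61 to 0.51), and that of Rims3 was 0.01 (-0.60 to 0.61), so both intervals lie within 2-fold. Rims1 spread from 6.18 in control array 1 to 8.20 in swap array 3. Rims4, below the median level, stood at 5.70, 6.44 and 7.16 in the swap arrays and at 4.26, 6.15 and 6.56 in the control arrays. Its difference of 0.77 (SE 0.71) was 0.07 without control array 1 and 1.23 without control array 3.

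The Munc13 priming factors Unc13a and Unc13b were both above the median level. Unc13a, whose promoter window holds both RE1 parts, stood at 8.23, 8.97 and 8.59 in the swap arrays and at 8.19, 8.99 and 7.89 in the control arrays, a difference of 0.24 (SE 0.38). The arrays overlap, with control array 3 the lowest of the 6. Unc13b differed by -0.05 (SE 0.39), and Unc13c, the Munc13 form known best from cerebellum, lay just below the median level at a mean of 6.70.

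Complexins divided by level. Cplx1 stood at 8.31, 8.58 and 8.77 in the swap arrays and at 8.59, 9.40 and 8.67 in the control arrays, with control array 2 the highest. The difference was -0.33 (SE 0.31), between -0.48 (without control array 1) and -0.08 (without control array 2) with 1 array left out, and the second Cplx1 probe set gave 0.73. Cplx2, the form that is also made widely outside the brain, differed by 0.06 (95% interval -0.50 to 0.62). Cplx3 and Cplx4, the complexins of retinal ribbon synapses, both lay below the median level. Cplx3 stood at 5.58, 3.55 and 5.88 in the swap arrays and at 2.81, 4.13 and 3.44 in the control arrays. Swap array 2 lies inside the control range, and the difference of 1.54 had an SE of 0.71.

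Tomosyns and amisyn, which bind syntaxin in place of VAMP, were at or above the median level. Stxbp5 and Stxbp5l, the tomosyns, differed by -0.20 (SE 0.29) and -0.16 (SE 0.36). Stxbp6, amisyn, lay between 9.64 and 9.93 in the swap arrays and between 9.67 and 10.05 in the control arrays, a difference of -0.06 (95% interval -0.62 to 0.49).

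**Figure D2:**
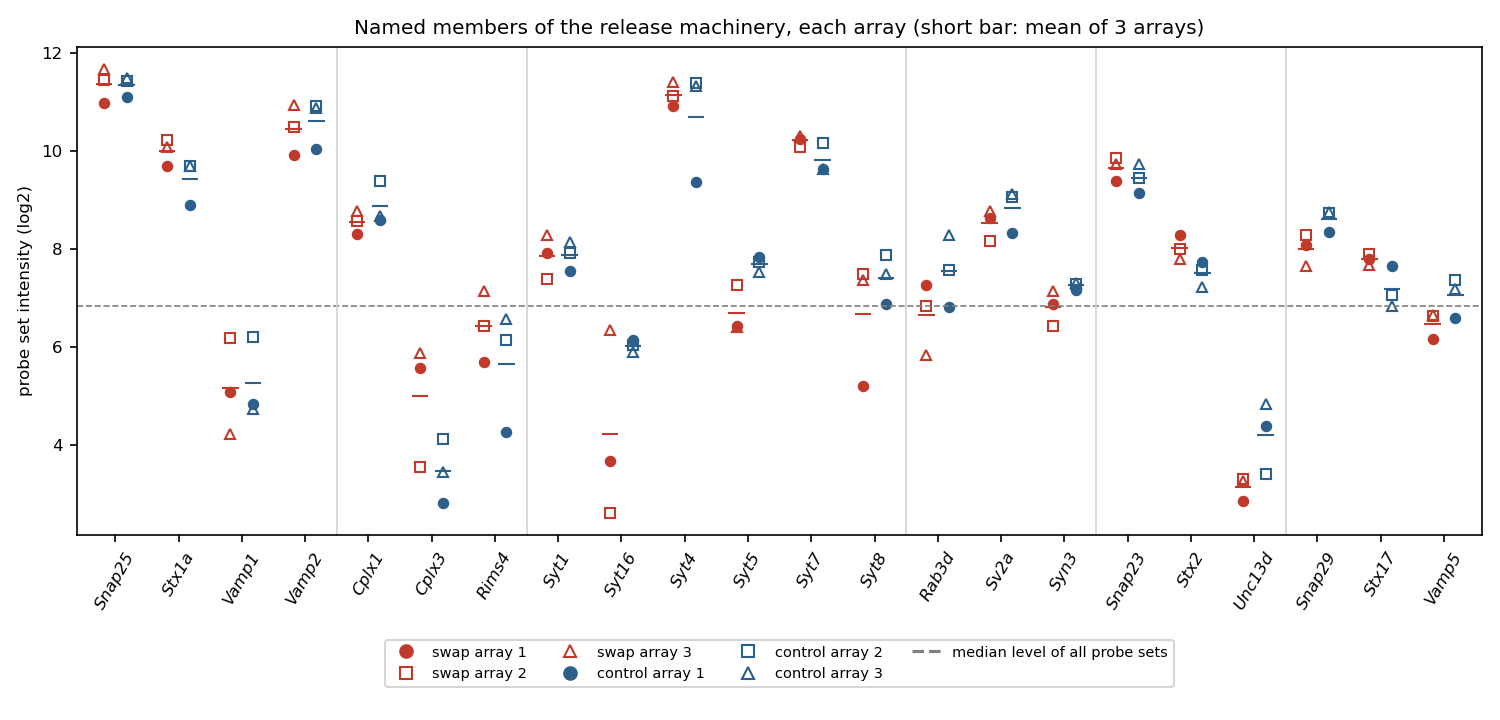
Log2 probe set intensity (y axis) of the 22 members given with all their arrays (x axis, in 6 role groups), with swap arrays in red left of control arrays in blue, a marker shape per replicate number and a short bar at the mean of 3 arrays. Syt5, Syn3 and Snap29 show all swap arrays below all control arrays at overall means above the dashed median level, and control array 1 of Syt4 stands apart at 9.38.

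Synaptotagmins were the largest family, with 16 members, 11 of them at or above the median level. Their median difference was -0.09, with 6 above 0 and 10 below. Syt5 had the smallest unadjusted p of the 70 members. This calcium-binding synaptotagmin of brain and of dense-core vesicles stood at 6.43, 7.27 and 6.40 in the swap arrays and at 7.85, 7.74 and 7.52 in the control arrays. Every swap array lay below every control array, and 2 of the swap arrays lay below the median level. The difference was -1.01 (SE 0.32, 95% interval -1.79 to -0.22), with limma's unadjusted p = 0.0201 and adjusted p = 1.00. Taken alone, the gene gave a two-sided exact permutation p = 0.1, which is the lowest value possible with 3 arrays in each genotype. Syt5 is read by 1 probe set, and its difference lay between -1.29 and -0.86 with any single array left out.

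Syt4, which lacks calcium binding in its first C2 domain and is known from dense-core vesicles and the early nervous system, stood at 10.93, 11.13 and 11.42 in the swap arrays and at 9.38, 11.40 and 11.34 in the control arrays. Control array 1 lay far below the other 5 arrays. The difference of 0.45 (SE 0.60) was -0.21 without that array and 0.80 without control array 2, and the second Syt4 probe set gave 0.34 (SE 0.70) over all arrays. Syt11, an atypical synaptotagmin that does not bind calcium, was the steadiest gene of the family, between 11.14 and 11.28 in the swap arrays and between 11.17 and 11.44 in the control arrays. Its difference was -0.11 (95% interval -0.63 to 0.41). Syt13, another member without calcium binding, differed by 0.10 (SE 0.32), with array 1 the lowest in each genotype at 9.61 in the swap group and 9.44 in the control group.

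Among the calcium sensors of synaptic release, Syt1 and Syt2 showed overlapping arrays. Syt1 stood at 7.92, 7.38 and 8.28 in the swap arrays and at 7.56, 7.92 and 8.15 in the control arrays, a difference of -0.01 (95% interval -0.82 to 0.79). The interval lies within 2-fold, and the other 3 Syt1 probe sets gave -0.41, 0.70 and 0.25. Syt2, the fast sensor of hindbrain and motor synapses, whose promoter window shown above holds the Pbx-Hox letters, stood at 7.24, 8.01 and 8.47 in the swap arrays and at 7.81, 8.29 and 8.21 in the control arrays. The difference was -0.20 (SE 0.38), with swap array 1 the lowest of the 6.

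Syt7, the slow high-affinity sensor of asynchronous release and of lysosome exocytosis, stood at 10.26, 10.10 and 10.31 in the swap arrays and at 9.63, 10.17 and 9.63 in the control arrays. The groups overlap through control array 2, and the difference was 0.41 (SE 0.25, 95% interval -0.21 to 1.03). The other Syt7 probe sets gave -0.56, -0.16 and -0.43, each at a lower level. Syt8 stood at 5.20, 7.49 and 7.37 in the swap arrays and at 6.87, 7.87 and 7.49 in the control arrays. It differed by -0.73 (SE 0.69), which was 0.02 without swap array 1 and -1.13 without swap array 2. Syt3 and Syt9 also lay above the median level, with differences of -0.56 (SE 0.44) and -0.08 (SE 0.36). Syt14 differed by 0.11 (SE 0.31). The 5 synaptotagmins below the median level (Syt6, Syt10, Syt12, Syt16 and Syt17) had SEs between 0.70 and 1.55. Syt16 stood at 3.68, 2.62 and 6.36 in the swap arrays and at 6.15, 6.04 and 5.90 in the control arrays, so that swap array 3 was the highest and the other swap arrays the lowest. Its difference was -1.81 (SE 0.95), between -2.88 (without swap array 3) and -1.01 (without swap array 2) with 1 array left out.

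Of the 11 vesicle-associated genes 10 lay at or above the median level, and their median difference was -0.04. Synapsins coat the vesicle and tether the reserve pool. Syn1, whose promoter window holds the left RE1 part at 2 places, stood at 7.91, 7.18 and 8.05 in the swap arrays and at 7.52, 8.36 and 7.39 in the control arrays. The arrays overlap, with a difference of -0.04 (SE 0.39). Syn2 differed by -0.21 (SE 0.30), and its other probe sets, all below the median level, gave 0.22, 0.23, 0.66, -0.69 and 2.05. Syn3, the synapsin made earliest in development, stood at 6.88, 6.43 and 7.13 in the swap arrays and at 7.17, 7.30 and 7.31 in the control arrays. The highest swap array lay narrowly under the lowest control array, with a difference of -0.45 (SE 0.26, adjusted p = 1.00 in limma) that was -0.25 without swap array 2. The next Syn3 probe set, just below the median level, gave 1.04 (SE 0.63).

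Sv2 proteins are vesicle glycoproteins and receptors of botulinum toxins. Sv2a, the most widespread form, stood at 8.63, 8.16 and 8.78 in the swap arrays and at 8.34, 9.07 and 9.12 in the control arrays, a difference of -0.32 (SE 0.33). The arrays overlap, and with 1 array left out the difference lay between -0.57 (without control array 1) and -0.14 (without swap array 2). Sv2b differed by -0.22 (SE 0.37), and Sv2c lay below the median level. Snap91, the AP180 adaptor that rebuilds vesicles by clathrin endocytosis, stood lowest in control array 1 at 8.91 and between 9.43 and 10.05 on the other 5 arrays, with a difference of 0.04 (SE 0.37).

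The Rab3 GTPases mark secretory vesicles and bind RIM. Rab3a, the main neuronal form, stood at 11.10, 10.48 and 10.05 in the swap arrays and at 9.99, 11.03 and 10.17 in the control arrays. The order of the arrays differs between the genotypes, and the difference was 0.15 (SE 0.42). This probe set is of the kind that can also bind other transcripts. The other Rab3a probe set stood at 9.31, 9.06 and 9.51 in the swap arrays, another order, and gave 0.21 (SE 0.35). Rab3b and Rab3c differed by 0.15 (SE 0.41) and 0.07 (SE 0.37). Rab3d, known from exocrine and other secretory cells outside the brain, stood at 7.26, 6.84 and 5.84 in the swap arrays and at 6.83, 7.57 and 8.29 in the control arrays. Its range of 2.45 over the 6 arrays was among the 3 widest at or above the median level, with those of Syt8 and Syt4. The difference was -0.92 (SE 0.53), between -1.28 (without control array 1) and -0.51 (without swap array 3) with 1 array left out, and the next Rab3d probe set gave 0.31.

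The relatives that serve surface exocytosis in other cells numbered 12, with 10 at or above the median level and a median difference of -0.03. Vamp3, cellubrevin, the VAMP of recycling endosomes in all cells, lay between 13.06 and 13.64 in the swap arrays and between 13.05 and 13.59 in the control arrays. Array 1 was the highest of each genotype here, and the difference was 0.02 (95% interval -0.67 to 0.71). Its other 4 probe sets gave 0.01, 0.12, 0.76 and -1.63, the last of them below the median level. Snap23, the widespread counterpart of Snap25, stood at 9.39, 9.87 and 9.75 in the swap arrays and at 9.15, 9.45 and 9.75 in the control arrays, a difference of 0.22 (SE 0.27). With 1 array left out it lay between 0.07 (without control array 1) and 0.37 (without control array 3). Stxbp3 and Stxbp4 had intervals within 2-fold, with differences of -0.08 (SE 0.21) and 0.03 (SE 0.25).

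Stx2, a plasma membrane syntaxin also known as epimorphin, stood at 8.29, 8.0 and 7.80 in the swap arrays and at 7.73, 7.58 and 7.23 in the control arrays. Every swap array lay above every control array, the closest by 0.06, and the difference was 0.51 (SE 0.26, 95% interval -0.13 to 1.15, adjusted p = 1.00 in limma). Stx3, the syntaxin of epithelia and photoreceptors, whose window holds the Pbx-Hox letters, stood at 6.96, 7.11 and 7.96 in the swap arrays and at 6.76, 8.17 and 7.53 in the control arrays. The arrays overlap, with a difference of -0.15 (SE 0.47). Stx4a differed by -0.28 (SE 0.43), and Stx19 lay below the median level.

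Vamp8, Stx11, Stxbp2 and Unc13d release granules in blood cells. Vamp8 stood at 7.55, 8.03 and 7.85 in the swap arrays and at 6.62, 8.65 and 7.50 in the control arrays. The control arrays spread over 2.03 while the swap arrays stayed close together, and the difference was 0.22 (SE 0.54). The macrophage receptor Csf1r stood at 9.07, 9.09 and 9.02 in the swap arrays and at 4.96, 11.37 and 7.48 in the control arrays. Control array 1 was thus the lowest and control array 2 the highest array for both genes. The whole macrophage list (8 of 8 measured, 4 at or above the median level) had a log2 summed intensity of 11.20 to 12.17 in the swap arrays and of 8.92 to 14.06 in the control arrays, and its part in the Vamp8 values was not tested. Stx11 and Stxbp2 differed by 0.19 (SE 0.43) and -0.08 (SE 0.27). Neither they nor Unc13d had the lowest and highest arrays of Vamp8. Stx11 was lowest in control array 3 at 6.57, and Stxbp2 was highest in control array 1 at 8.11. Unc13d, Munc13-4, stood at 2.86, 3.30 and 3.26 in the swap arrays and at 4.38, 3.40 and 4.83 in the control arrays. These intensities of 8.90 on average in the swap arrays and 20.0 in the control arrays lie far below the median level of 114. Its difference of -1.06 (SE 0.42) had limma's unadjusted p = 0.0463 and adjusted p = 1.00.

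The 13 SNAREs of the Golgi apparatus, endosomes and lysosomes had the lowest median SE of the 6 role groups, 0.27, with 12 at or above the median level and 8 intervals within 2-fold. Their median difference was -0.11, with 4 above 0 and 9 below. Stx12, a syntaxin of early endosomes, stood at 11.61, 11.80 and 12.25 in the swap arrays and at 11.69, 12.01 and 12.17 in the control arrays. The arrays overlap, and the difference was -0.07 (95% interval -0.76 to 0.61). Stx5a, the Golgi syntaxin, differed by 0.16 (95% interval -0.40 to 0.73), Stx7 of late endosomes by 0.11 (-0.42 to 0.65) and Stx18 of the endoplasmic reticulum by 0.05 (-0.48 to 0.59). Vamp7, the VAMP of lysosomes that also acts in neurite growth, was highest in array 1 of each genotype, at 11.26 in the swap group and 11.03 in the control group, with a difference of -0.05 (SE 0.32). Vamp4, Stx8, Stx6, Stx16 and Snap47 had differences between -0.29 and -0.11, with SEs between 0.25 and 0.39. Vamp5, a muscle VAMP, lay just below the median level, with a difference of -0.57 (SE 0.31). It stood at 6.16, 6.64 and 6.65 in the swap arrays and at 6.60, 7.38 and 7.19 in the control arrays.

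Snap29 and Stx17, which together fuse autophagosomes with lysosomes, had the smallest unadjusted p of this group and pointed in opposite directions. Snap29 stood at 8.08, 8.28 and 7.65 in the swap arrays and at 8.35, 8.74 and 8.76 in the control arrays. Every swap array lay below every control array, with a difference of -0.62 (SE 0.27, 95% interval -1.29 to 0.06). Stx17 stood at 7.80, 7.91 and 7.67 in the swap arrays and at 7.65, 7.05 and 6.83 in the control arrays. Every swap array lay above every control array, the closest by 0.02, with a difference of 0.61 (SE 0.29, 95% interval -0.10 to 1.32). limma's adjusted p was 1.00 for both genes. The second probe set of each lay above the median level as well and gave 0.04 (SE 0.26) for Snap29 and 0.15 (SE 0.31) for Stx17.

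Several members were read by more than 1 probe set, which allowed the same gene to be compared with itself. Of the 70 genes 48 had 2 or more probe sets, and 29 had 2 or more at or above the median level. In 15 of these 29 the probe sets of a gene gave differences of both signs. Snap25 (0.02 and -0.04) and Vamp4 (-0.18 to 0.09) show how close to 0 such pairs lay, while Cplx1 (-0.33 and 0.73) and Syt7 (-0.56 to 0.41) were farther apart. Among the representing probe sets 7 end in _x_at, those of Stx1a, Rab3a, Vamp3, Stxbp2, Snap47, Stx18 and Stx6. A further 2 end in _s_at, those of Syn3 and Stx5a. Both kinds can also bind other transcripts. Over all 167 probe sets limma called 0, and 6 had an unadjusted p under 0.05, against 4.57% of all 45037 probe sets. These were the probe sets of Syt5 and Unc13d and further ones of Syn2 (2.05), Stx3 (-1.84), Stx6 (1.00) and Stx8 (-0.86). Only those of Syt5 and Stx8 lay above the median level. The Syn2 one, at a mean of 3.81, had the smallest, limma's unadjusted p = 0.0063 and adjusted p = 0.8176.

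**Figure D3:**
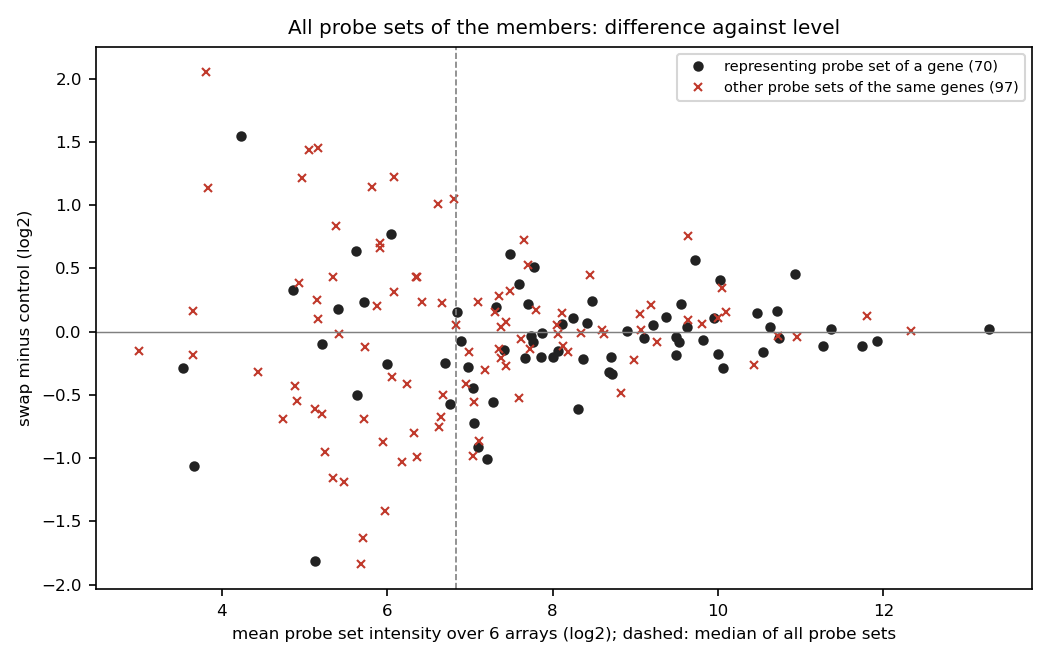
Log2 difference (y axis, swap minus control) of all 167 probe sets of the members against their mean log2 intensity over the 6 arrays (x axis). Black points are the 70 representing probe sets and red crosses the other 97, and the dashed line marks the median level of 6.83, left of which the differences spread more widely.

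The members also varied between arrays of the same genotype. For the 56 members at or above the median level, the median deviation from a gene's own mean over 6 arrays was -0.10, -0.03 and 0.12 in swap arrays 1, 2 and 3 and -0.20, 0.18 and 0.12 in control arrays 1, 2 and 3. Over all 11168 genes at that level it stayed between -0.01 and 0.03 on every array. The arrays share a trimmed mean, so a median over that many genes is held near 0. A median over few genes varies more, so the 2 spreads are not like for like. The fusion SNAREs Snap25, Stx1a and Vamp2 showed the widest spread of the 6 role groups over the 6 arrays, at -0.38, 0.09 and 0.37 in the swap arrays and at -0.49, 0.08 and 0.13 in the control arrays. Array 1 was thus the low one in both genotypes for these 3 genes. The other groups had 10 to 12 genes at that level, so the wider spread of 3 genes is no result about the fusion SNAREs. Vesicle-associated genes stood at -0.11, -0.22 and 0.14 in the swap arrays and at -0.31, 0.31 and 0.35 in the control arrays. Golgi and endosome SNAREs stayed between -0.05 and 0.07 in the swap arrays and between -0.10 and 0.09 in the control arrays.

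Other measures of the arrays moved with parts of this pattern. The summed neuron markers (8 of 8 measured, all at or above the median level) stood at 15.86, 15.58 and 15.79 on the log2 scale in the swap arrays and at 15.39, 15.76 and 15.66 in the control arrays. They were lowest in control array 1 and highest in swap array 1, where the fusion SNAREs were low. The branchial mesenchyme list (6 of 6 measured) was lowest in array 1 of each genotype, with 11.38 to 12.39 in the swap arrays and 11.09 to 12.96 in the control arrays. The progenitor list (6 of 6 measured) stayed between 14.97 and 15.17 in the swap arrays and between 14.96 and 15.18 in the control arrays. The erythroid list (4 of 5 measured) stood between 13.90 and 14.92 in the swap arrays and between 14.32 and 15.01 in the control arrays, lowest in array 1 of each genotype as well. The macrophage list given above was also lowest in array 1 of each genotype. The 4 endothelial markers all lay below the median level.

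RNA quality was read from the array controls. For Actb, the log2 intensity at the 3′ end less that at the 5′ end, a measure of RNA quality, was 2.92, 2.51 and 2.45 in the swap arrays and 2.67, 2.57 and 2.41 in the control arrays, highest in array 1 of each genotype. The same measure for Gapdh was 1.93, 1.23 and 1.35 in the swap arrays and 1.34, 1.42 and 1.28 in the control arrays, highest in swap array 1 and control array 2. The part of these measures in the members' values was not tested. In such a sort, fewer cells of a type and less RNA per cell cannot be told apart. The facial motor neuron genes Isl1 and Tbx20 were high on every array, at 13.43 or above in the swap arrays and 13.27 or above in the control arrays.

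**Figure D4:**
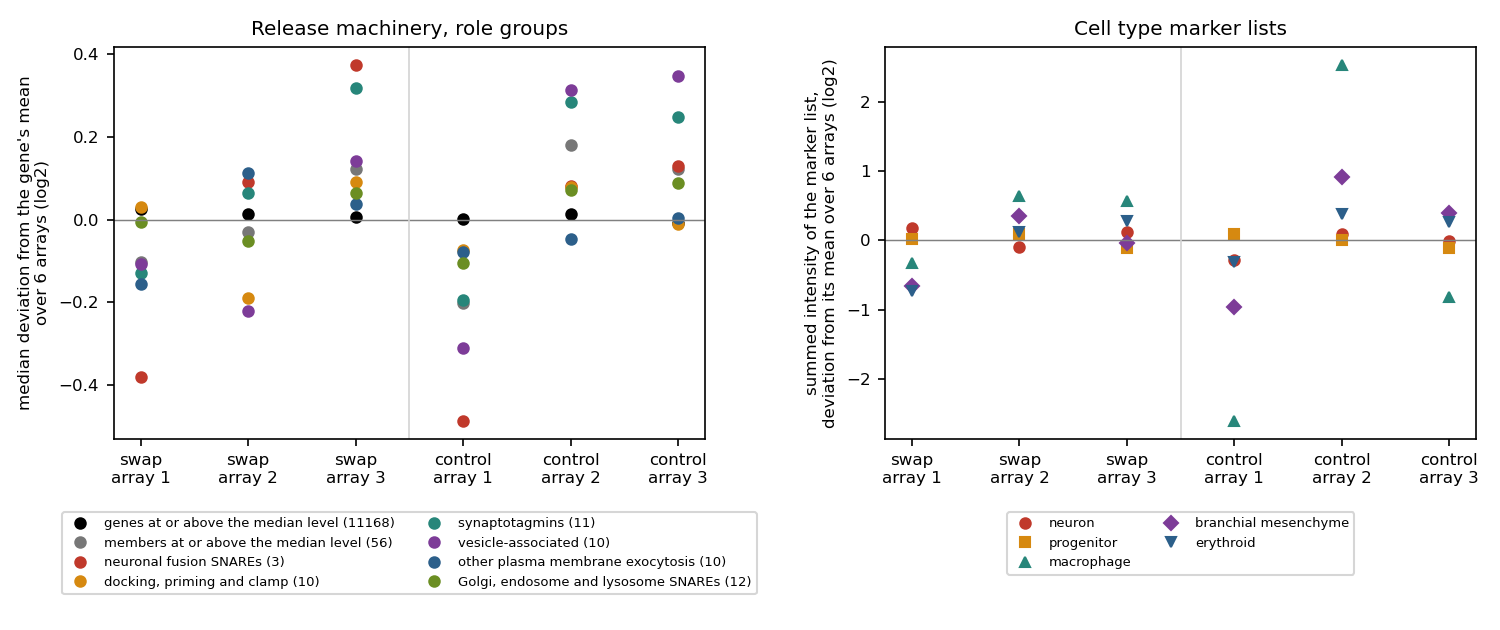
Left, median deviation from each gene's mean over 6 arrays (y axis, log2) in each array (x axis) for the role groups at or above the median level, with the number of genes in brackets. Right, the log2 summed intensity of each marker list as its deviation from the mean over 6 arrays. The 3 fusion SNAREs are lowest in array 1 of each genotype, and the macrophage list spans the widest range, in the control arrays.

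The rest of the release pathway, 43 further genes of the active zone, vesicle membrane, SNARE disassembly and vesicle recycling, had 42 measured. limma called 0 of them, and 1 had an unadjusted p under 0.05, against 3.63% of all genes. Of the differences 22 were above 0 and 20 below, with a median of 0.01. Of these genes 36 (85.7%) lay at or above the median level, against 61.4% of all genes. Intervals within 2-fold were found in 29 of these 36 (80.6%), against 68.1% of all genes at that level. The smallest unadjusted p belonged to Ppfia4, Ppfia2 and Rph3a. Ppfia4, a liprin scaffold of the active zone, stood at 6.50, 6.88 and 5.78 in the swap arrays and at 7.36, 7.78 and 7.30 in the control arrays. Every swap array lay below every control array, with a difference of -1.10 (SE 0.36, limma's unadjusted p = 0.0226 and adjusted p = 1.00). Ppfia2, another liprin, stood at 6.61, 6.52 and 6.97 in the swap arrays and at 3.55, 6.31 and 5.78 in the control arrays, with every swap array above every control array. Its difference of 1.49 (SE 0.74) was 0.66 without control array 1. Rph3a, rabphilin, an effector of Rab3, differed by -0.68 (SE 0.44), with -0.35 without swap array 1, -1.12 without swap array 3 and -0.03 on its second probe set.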

How the data were processed

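Total RNA of sorted tauGFP-positive cells was amplified, biotin-labelled and hybridized to Affymetrix mouse arrays, 3 per genotype. The authors deposited 1 linear intensity per probe set and array, and the submitters' processing notes name the affy package. How background was handled and probes were summarised, and which version was used, is not given in these sources. The deposited intensities share a 2% trimmed mean of 500.0 on every array. There are no detection calls, so no probe set was called absent, and other per-sample columns number 0. Array medians lay between 118 and 139 in both genotypes, and precision is limited by there being 6 arrays.

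Of 45101 probe sets 64 array controls were left out. Probe sets with a single symbol in the platform's table (34945) were named, and those with several (932) or none (9160) were not. All 70 member identifiers matched the RefSeq table (GRCm38.p6). No offset was added before log2. Differences are swap minus control, fitted in R 4.3.3 on all 45037 remaining probe sets. limma 3.58.1 (lmFit, then eBayes) gave two-sided p, which were adjusted over all of them by Benjamini-Hochberg at a threshold of 0.05. With groups of 3 the smallest two-sided exact permutation p is 0.1. The fitting script was tested on simulated data, with 50 changes of each size among 45037 probe sets. It recovered 0 of 50 at 2-fold, 22 at 4-fold, 36 at 8-fold and 44 at 16-fold, and called 3 unchanged probe sets. The changes all lay among the 22519 brighter probe sets, so recovery in dimmer ones was not tested. A fit of those 22519 alone recovered 12, 39, 46 and 50 and called 7 unchanged probe sets. The p-values measure the spread between litter pools of a genotype.

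The members and lists were chosen with earlier results of these data known. Values in every array are given for Snap25, Stx1a, Vamp2 and Syt1, for the 3 members per role group with the smallest unadjusted p, for members at or above the median level whose arrays do not overlap, and for the 3 such members with the widest range. Others named were chosen after their values were seen. Some items are not reported here. Same-numbered arrays of the genotypes were checked for pairing, and their deviations correlated at 0.23, 0.03 and 0.22. Without the values of unmatched arrays beside them, these do not settle whether the numbers are pairs. The labels name no pairing, and the numbers were not taken as pairs in the main fit. Alternatives were other normalizations, filters, probe set choices and priors, the replicate block, and each array left out.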

Additional observations from a re-analysis of the deposited data

How the results depend on the processing

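limma called 0 members and 0 other release genes under each of the 18 alternatives, with 0.369 the smallest adjusted p of a member. Of 435 recomputed differences of named genes 404 kept their sign and 31, none of them called, turned. The count of members with an unadjusted p under 0.05 (2 as reported) was 1 with the replicate number as a block, 4 with the filter at the median level and 0 with the second probe set of each gene, which 48 members have. Without single arrays it was 0 to 2. Members whose arrays do not overlap (6 as reported) numbered 3 with the second probe set, 6 to 14 without single arrays, the most without control array 1, and 20 without both replicate 1 arrays. Fewer arrays make separation easier in all genes. The shares over all genes are not given for the alternatives, so neither kind of count is a result about the members. Intervals within 2-fold (27 as reported) numbered 57 with an offset of 64, which shrinks differences of dim probe sets. With the filter at the median level they numbered 40 among the 56 members left. The count was 39 when the variance prior was robust and varied with intensity, and 34 with median centring. It was 16 with the second probe set, 15 to 20 without single arrays and 19 without both replicate 1 arrays. Under the remaining alternatives it lay between 27 and 31. The count thus depends on the fit, and the 48.2% and 68.1% given above belong to the main fit only. The members' median kept its sign under every alternative and lay between -0.20 (without control array 1) and -0.002 (without control array 2) when single arrays were left out. Taking the mean of a gene's probe sets turned Snap25 to -0.013, Stx17 to -0.056, Stx1a to -0.052, Syn3 to 0.158, Syt1 to 0.130, Syt7 to -0.184 and Vamp1 to 0.002. The second probe set gave 0.726 for Cplx1, 0.313 for Rab3d, -0.208 for Snap23, -0.044 for Snap25, 0.037 for Snap29, -0.673 for Stx1a, 1.045 for Syn3, -0.556 for Syt7 and 0.101 for Vamp1. Probe sets without a suffix letter, an alternative chosen after seeing the data, also gave -0.673 for Stx1a and 1.045 for Syn3. Median centring gave 0.016 for Syt1, and leaving out both replicate 1 arrays gave -0.097 for Syt4. Without single arrays the differences spanned -0.135 to 0.214 for Snap25, -0.224 to 0.226 for Syt1, -0.212 to 0.803 for Syt4, -1.127 to 0.017 for Syt8, -0.608 to 0.377 for Vamp1 and -0.450 to 0.102 for Vamp2. Apart from the constructions named, the cause was not tested. The replicate block changed no call. Numbered pairs deviated together at 0.234, 0.031 and 0.224, which does not settle whether they are pairs. The labels name no pairing, so the block is no pairing known from the design. In the simulated data the fit over 45037 probe sets recovered 0 of 50 changes of 2-fold and 22 of 50 changes of 4-fold. The fit of the 22519 brighter probe sets alone recovered 12 of 50 and 39 of 50. The count of 0 called members alone therefore does not exclude differences of these sizes. No change was simulated in a dimmer probe set, so recovery in members below the median level was not tested. The SE was larger in members below the median level (median 0.73) than in the others (median 0.32).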
